A study of Rattus norvegicus with 8 samples.

Results

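Ion channel genes of rat dorsal root ganglia are described here. They were chosen by gene symbol, as every listed gene whose symbol starts like that of a voltage-gated sodium, potassium or calcium channel, a TRP, P2X, Piezo, HCN, acid-sensing, anoctamin, CLC, CLIC, GABA-A, ionotropic glutamate, nicotinic, serotonin 5-HT3 or cyclic nucleotide-gated channel subunit. There were 50 such genes among the 4351 genes listed in either of the authors' 2 tables. Of these, 49 stood among the 4136 genes listed for IMQ against WT and 5 among the 775 genes listed for lidocaine against IMQ, with 4 in both. Each table holds only genes whose group means differed by at least 1.00 on a log2 scale, so a channel gene that is not listed was not analysed here.

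The lidocaine group (n = 2) was of wild-type Sprague Dawley rats that had imiquimod (IMQ) on the back skin for 6 days and epidural 1% lidocaine for 4 of them, from day 3. Rats of the IMQ group (n = 3) had imiquimod alone for 6 days, and WT rats (n = 3) had no treatment. Animals weighed 250 g, and the labels name no epidural vehicle, no skin vehicle and no number of animals per sample. Imiquimod is an agonist of a Toll-like receptor that inflames skin and is used to model psoriasis. Lidocaine is a local anaesthetic that blocks voltage-gated sodium channels. The samples are numbered but not stated to come from separate animals, so p-values reflect only how these samples spread, which may be technical.

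Ion channels set how a sensory neuron fires. Sodium and calcium channels carry the depolarizing currents, potassium channels set the resting potential and the spacing of action potentials, and TRP, Piezo, P2X and acid-sensing channels open to heat, touch, ATP or acid. The ganglion also holds satellite glia, Schwann cells, vessels and immune cells with channels of their own, such as the inward rectifiers by which satellite glia take up potassium.

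Levels below are log2(normalized count + 1) per library, and a difference is the first group's mean less the second's, in the same units, with the standard error (SE) of limma. Levels are not per length and are not compared between genes. Summed over listed genes, the IMQ and WT libraries of the first table held 4311090 to 9035490 reads, and the lidocaine and IMQ libraries of the second held 254922 to 778890. The WT libraries differed from each other more than the IMQ libraries did. Over the channel genes higher in IMQ the median range was 0.47 among IMQ libraries and 1.54 among WT libraries, and over those lower in IMQ it was 0.30 and 0.65. In bulk tissue, fewer cells of a type and less RNA per cell cannot be told apart.

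Ion channel genes moved in both directions after imiquimod. Of the 49 listed, 27 were higher in IMQ and 22 lower. At an adjusted p under 0.05 (limma, Benjamini-Hochberg over the listed genes), 26 rose and 22 fell, against 58.9% of all listed genes that rose and 37.0% that fell. All IMQ libraries lay above all WT libraries for 26 of the 27, with Kcnb2 the exception. All lay below for 21 of the 22, with Grin2c the exception. These were 53.1% and 42.9% of the 49 listed channel genes, against 57.0% and 35.8% of all listed genes. Since listing had already required a difference, nearly every listed gene passed. The median difference was 1.86 for the higher channel genes and -1.44 for the lower ones, against 1.89 and -1.37 for all higher and all lower listed genes. Higher genes made up 55.1% of the listed channel genes and 61.1% of all listed genes. No listed gene matched an anoctamin, serotonin 5-HT3 or cyclic nucleotide-gated channel symbol. The smallest listed differences among the channel genes were 1.03 for Gabra5 and -1.02 for Cacng3 and Asic4.

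**Figure D1:**
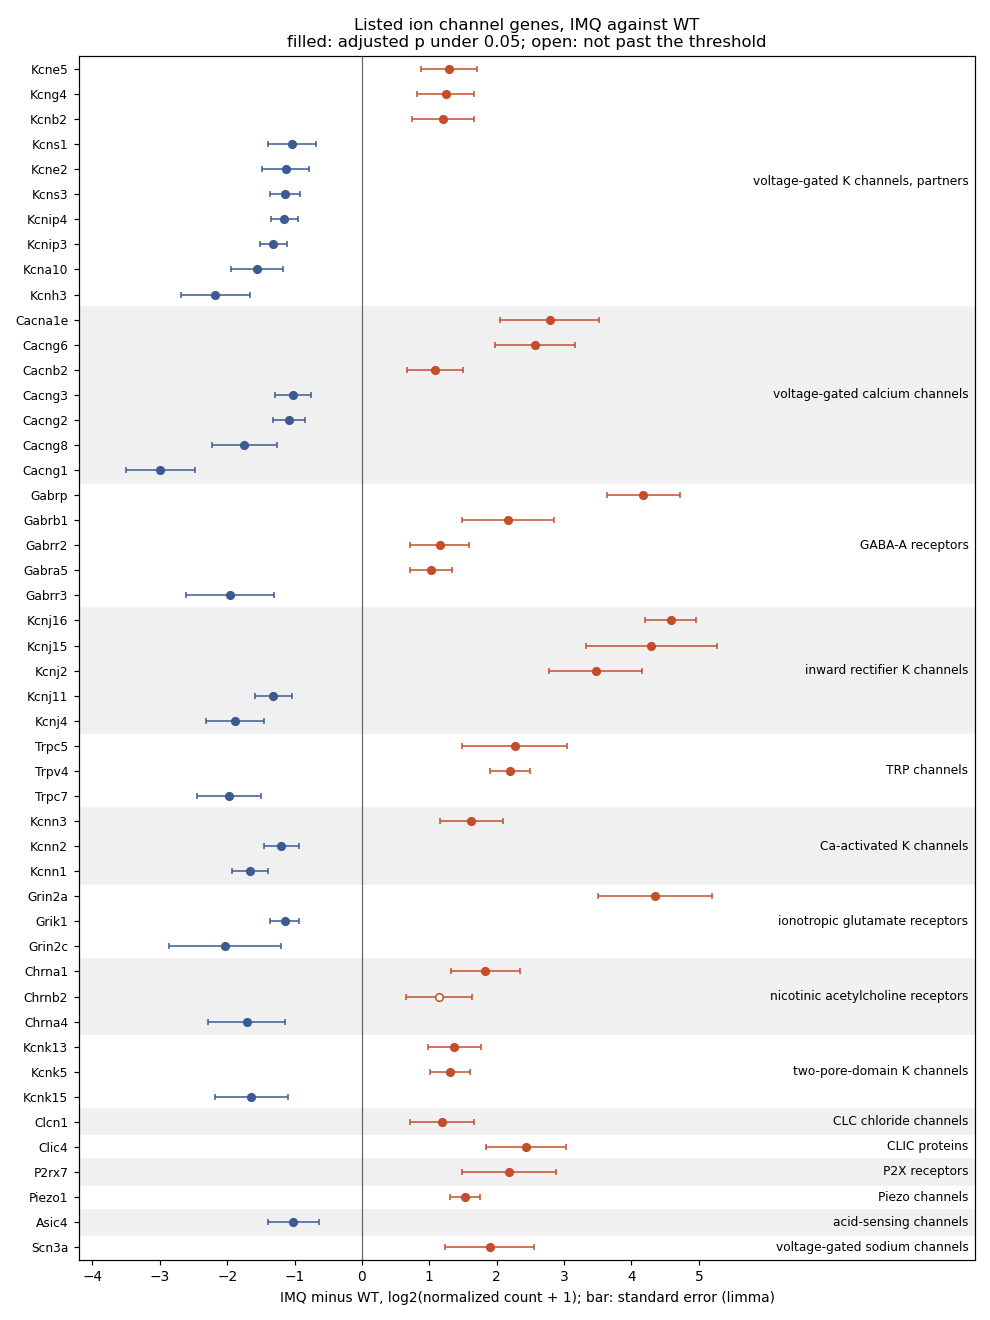
Difference of listed ion channel genes, mean IMQ minus mean WT in log2(normalized count + 1), grouped by channel class. Bars are standard errors from limma and the open circle is Chrnb2, the 1 gene not past the threshold. Values run from -2.99 for Cacng1 to 4.58 for Kcnj16, and the classes with 3 or more genes each hold genes on both sides of 0.

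Promoter windows are shown for Scn3a, the 1 listed pore subunit among lidocaine's sodium channel targets, and for the 4 channel genes listed in both tables. Each runs from 250 bases before to 50 after the RefSeq transcript start in rat build GRCr8 and is written 5′ to 3′ along the gene. The windows are chr3:70666149-70666448 (minus strand) for Scn3a, chr10:96517074-96517373 (plus) for Kcnj16, chr15:4171375-4171674 (plus) for Kcnk5, chr1:74662704-74663003 (minus) for Cacng6 and chr17:7714651-7714950 (plus) for Trpc7. Capitals mark matches on either strand to AP-1 (TGANTCA), a cAMP response element (TGACGTCA), a STAT site (TTCNNNGAA), the NF-kB consensus, a TATA box (TATAAA), a GC box (GGGCGG) or a CCAAT box (CCAAT). No capitals overlap between motifs.
Scn3a: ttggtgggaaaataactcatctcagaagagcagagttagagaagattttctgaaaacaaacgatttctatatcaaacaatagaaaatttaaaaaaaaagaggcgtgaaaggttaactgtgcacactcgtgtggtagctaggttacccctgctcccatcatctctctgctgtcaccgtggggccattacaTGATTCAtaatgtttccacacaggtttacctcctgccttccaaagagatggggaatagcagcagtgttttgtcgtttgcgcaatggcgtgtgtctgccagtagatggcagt
Kcnj16: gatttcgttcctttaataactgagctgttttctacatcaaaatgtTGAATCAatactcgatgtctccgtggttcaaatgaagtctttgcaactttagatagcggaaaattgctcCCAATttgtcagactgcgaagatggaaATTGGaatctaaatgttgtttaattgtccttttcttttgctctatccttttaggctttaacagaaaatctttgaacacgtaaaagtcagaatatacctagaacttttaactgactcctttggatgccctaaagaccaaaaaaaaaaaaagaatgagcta
Kcnk5: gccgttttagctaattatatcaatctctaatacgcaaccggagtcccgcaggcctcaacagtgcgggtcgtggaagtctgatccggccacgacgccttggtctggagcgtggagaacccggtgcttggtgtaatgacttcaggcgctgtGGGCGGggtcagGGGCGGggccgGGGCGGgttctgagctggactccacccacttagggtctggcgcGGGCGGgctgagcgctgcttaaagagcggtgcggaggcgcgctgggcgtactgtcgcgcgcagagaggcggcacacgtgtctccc
Cacng6: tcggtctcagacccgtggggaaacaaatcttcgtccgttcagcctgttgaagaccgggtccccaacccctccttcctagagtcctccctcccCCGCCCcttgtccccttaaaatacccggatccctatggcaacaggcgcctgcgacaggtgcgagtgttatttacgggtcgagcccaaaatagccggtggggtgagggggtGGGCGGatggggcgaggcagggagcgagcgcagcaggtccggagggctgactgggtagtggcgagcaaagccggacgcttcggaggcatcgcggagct
Trpc7: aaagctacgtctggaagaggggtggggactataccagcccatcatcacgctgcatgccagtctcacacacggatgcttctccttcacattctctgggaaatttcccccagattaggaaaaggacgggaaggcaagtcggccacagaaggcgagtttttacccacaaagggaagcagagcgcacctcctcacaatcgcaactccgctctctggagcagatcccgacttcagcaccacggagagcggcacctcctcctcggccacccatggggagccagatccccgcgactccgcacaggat

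An AP-1 match began 61 bases before the start in Scn3a and 205 bases before it in Kcnj16, which also held CCAAT matches at 136 and 109 bases. Kcnk5 held 4 GC boxes, at 101, 89, 78 and 35 bases before the start, and Cacng6 held GC boxes at 158 and 48 bases. The Trpc7 window held none of the 7 motifs. Among the 37 listed channel genes with a window, 5.41% held AP-1, 0% the cAMP response element, 5.41% STAT, 13.5% NF-kB, 10.8% a TATA box, 37.8% a GC box and 24.3% a CCAAT box. Of 27457 rat promoters of the same length, the shares were 7.33%, 1.91%, 8.68%, 7.60%, 14.3%, 34.9% and 37.7% in the same order. The windows of Kcnj16, Cacng6 and Trpc7 lie inside the annotated span of their gene, so other transcripts begin further upstream. A match is only a string of letters in the window.

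Most of lidocaine's own targets were not listed. Genes that were not listed have no values here, so no background share of listing can be set beside these counts. Of 10 genes for pore-forming (alpha) subunits of voltage-gated sodium channels, 1 was listed for IMQ against WT, and of 4 genes for their beta subunits none was. Of 15 other channel genes reported to respond to lidocaine or other local anaesthetics, those described here are Grin2a and Grin2c. None of these sodium channel or other target genes was listed for lidocaine against IMQ.

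Scn3a encodes a sodium channel alpha subunit that is abundant in embryonic neurons and returns in rat sensory neurons after nerve injury. It had levels of 8.49, 8.89 and 8.81 in IMQ libraries, against 8.39, 6.56 and 5.57 in WT libraries. The groups did not overlap, but WT library 1 lay just under the lowest IMQ library while WT library 3 held 52 reads against 462 in WT library 1. Scn3a rose by 1.89 ± 0.67 (SE; limma adjusted p = 0.0288). Without WT library 2 the difference was 1.75 (limma adjusted p = 0.087), without WT library 3 it was 1.26 (0.0615), and without IMQ library 1, 2 or 3 it was 2.02, 1.81 or 1.85 (0.062, 0.0846 and 0.0736), so each of these omissions ended the call. Without WT library 1 the difference was 2.67 (limma adjusted p = 0.000751).

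Ionotropic glutamate receptors gave 1 gene that rose and 2 that fell, where 58.9% of all listed genes rose and 37.0% fell. Grin2a, a subunit of NMDA receptors, had levels of 4.58, 5.92 and 5.45 in IMQ libraries, against 2.91, 0 and 0 in WT libraries. It was thus detected in 1 of 3 WT libraries and rose by 4.34 ± 0.84 (SE; limma adjusted p = 0.00441). Grin2c, another NMDA receptor subunit, had no read in any IMQ library, against 0, 9 and 9 reads in WT libraries. Against a floor of 3 reads per IMQ library it was at least 1.44-fold lower in IMQ, with a limma adjusted p of 0.0453, and its call ended without WT library 2 or 3 or any IMQ library (0.0902 to 0.144). Grik1, the kainate receptor subunit typical of small sensory neurons, had levels of 11.82, 11.79 and 11.75 in IMQ libraries, against 12.82, 12.81 and 13.15 in WT libraries. Grik1 fell by 1.14 ± 0.22 (SE; limma adjusted p = 0.00397), with narrow, separate groups.

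**Figure D2:**
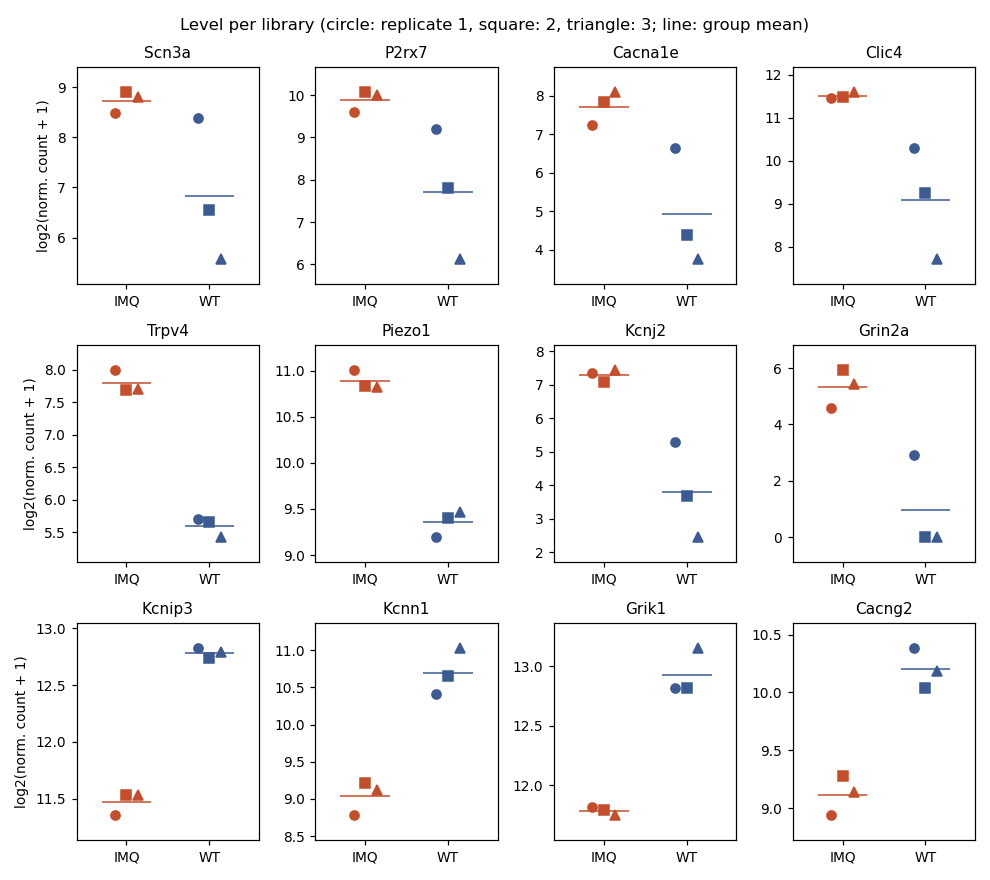
Level per library of 12 ion channel genes in log2(normalized count + 1), IMQ left and WT right. Circles, squares and triangles are replicates 1, 2 and 3, lines are group means, and each panel has its own axis that does not start at 0. For Scn3a, P2rx7, Cacna1e and Clic4 WT replicate 1 stands nearest to IMQ and replicate 3 lowest, while the groups of Trpv4, Piezo1 and Kcnip3 are narrow and apart.

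Of the inward rectifier potassium channel genes listed for IMQ against WT, 3 rose and 2 fell. Over all listed genes 58.9% rose and 37.0% fell. Kcnj16 encodes a subunit (Kir5.1) that joins the Kir4.1 subunit of satellite glia. It had levels of 9.92, 8.73 and 9.52 in IMQ libraries, against 4.76, 4.67 and 5.01 in WT libraries. All IMQ libraries stood far above a narrow WT group, and Kcnj16 rose by 4.58 ± 0.38 (SE; limma adjusted p = 0.000173). Its neighbour among protein-coding genes in RefSeq is Kcnj2, which encodes the strong rectifier Kir2.1. Kcnj2 had levels of 7.33, 7.08 and 7.42 in IMQ libraries, against 5.30, 3.68 and 2.45 in WT libraries, and rose by 3.47 ± 0.69 (SE; limma adjusted p = 0.00468). Kcnj15 (Kir4.2) had levels of 6.80, 6.48 and 6.58 in IMQ libraries, against 4.20, 2.79 and 0 in WT libraries, and rose by 4.29 ± 0.97 (SE; limma adjusted p = 0.0072).

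Glial markers moved beside these genes. Of 16 markers of satellite glia and Schwann cells, 5 were listed and all 5 rose, where 58.9% of all listed genes rose. Their summed normalized count, mostly from Glul, was 40654 to 67293 in IMQ libraries and 17186 to 18892 in WT libraries. Gfap had the largest difference among them (3.65 ± 0.27, SE; limma adjusted p = 0.000121), and Kcnj10, the Kir4.1 gene, was not listed. Their part in the increase of Kcnj16 was not tested.

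Other inward rectifiers fell. Kcnj11 encodes the pore (Kir6.2) of the ATP-sensitive potassium channel and had levels of 8.51, 8.53 and 8.32 in IMQ libraries, against 9.39, 9.85 and 10.05 in WT libraries. Kcnj11 fell by 1.31 ± 0.27 (SE; limma adjusted p = 0.00535). Kcnj4 (Kir2.3) had levels of 6.12, 4.86 and 5.58 in IMQ libraries, against 6.98, 7.46 and 7.77 in WT libraries, and fell by 1.88 ± 0.43 (SE; limma adjusted p = 0.00736). Neither gene had overlapping groups.

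Of 10 listed genes for voltage-gated potassium channels and their partners, 7 fell and 3 rose, where 37.0% of all listed genes fell and 58.9% rose. The split of the class was not tested. Kcnip3 and Kcnip4 encode calcium-binding proteins that attach to Kv4 channels. Kcnip3 had levels of 11.36, 11.53 and 11.53 in IMQ libraries, against 12.82, 12.74 and 12.79 in WT libraries, and fell by 1.31 ± 0.20 (SE; limma adjusted p = 0.00187). Kcnip4 had levels of 11.25, 11.31 and 11.29 in IMQ libraries, against 12.42, 12.37 and 12.51 in WT libraries, and fell by 1.15 ± 0.20 (SE; limma adjusted p = 0.00304). The libraries of each group stood close together for both genes, with a wide gap between the groups.

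Kcns1 and Kcns3 encode silent subunits that form channels only together with Kv2 subunits. Kcns3 had levels of 10.74, 10.93 and 10.85 in IMQ libraries, against 11.75, 12.10 and 12.11 in WT libraries, and fell by 1.15 ± 0.22 (SE; limma adjusted p = 0.0044). Kcns1 had levels of 10.49, 10.65 and 10.55 in IMQ libraries, against 10.94, 11.56 and 12.30 in WT libraries, and fell by 1.03 ± 0.36 (SE; limma adjusted p = 0.0274). The call of Kcns1 ended without WT library 2 or without any 1 IMQ library, with a largest limma adjusted p of 0.0757, and without WT library 3 the difference was -0.68. Kcnb2, a Kv2 pore subunit, went the other way, with levels of 8.07, 8.47 and 8.41 in IMQ libraries against 8.13, 6.60 and 6.62 in WT libraries. Its groups overlapped through WT library 1, and its increase of 1.20 ± 0.46 (SE; limma adjusted p = 0.0371) was lost without any 1 library other than WT library 1, with a limma adjusted p of up to 0.124.

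Of the other genes of the class, 3 fell and 2 rose. Kcne2, an accessory subunit, had levels of 5.85, 5.07 and 5.38 in IMQ libraries, against 6.40, 6.76 and 6.52 in WT libraries, and fell by 1.13 ± 0.35 (SE; limma adjusted p = 0.0198). Kcna10 had a mean level of 2.55 ± 0.10 in IMQ libraries and 4.11 ± 0.43 in WT libraries (SD, n = 3 each) and fell by 1.56 ± 0.39 (SE; limma adjusted p = 0.0104). Kcnh3 had no read in any IMQ library, against 3, 3 and 9 reads in WT libraries, and was at least 1.22-fold lower in IMQ against the floor of 3 reads per library (limma adjusted p = 0.00826). The silent subunit Kcng4 rose by 1.24 ± 0.43 (SE; limma adjusted p = 0.027) and the accessory subunit Kcne5 by 1.30 ± 0.41 (SE; limma adjusted p = 0.0216).

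Small-conductance calcium-activated potassium channels, which shape the afterhyperpolarization that follows a spike, split by gene. Kcnn1 had levels of 8.78, 9.22 and 9.12 in IMQ libraries, against 10.41, 10.66 and 11.02 in WT libraries, and fell by 1.66 ± 0.27 (SE; limma adjusted p = 0.00221). Kcnn2 had levels of 7.44, 7.42 and 7.08 in IMQ libraries, against 8.53, 8.39 and 8.60 in WT libraries, and fell by 1.19 ± 0.27 (SE; limma adjusted p = 0.00688). Kcnn3 was higher, with 8.22, 9.07 and 8.93 in IMQ libraries against 8.04, 6.50 and 6.81 in WT libraries. Kcnn3 rose by 1.62 ± 0.47 (SE; limma adjusted p = 0.016), a call that ended without WT library 2, IMQ library 2 or IMQ library 3, with a largest limma adjusted p of 0.0608.

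Of the potassium channels with a pair of pore domains, which carry background currents, 2 rose and 1 fell. The shares over all listed genes were 58.9% and 37.0%. Kcnk5 (TASK-2), opened by alkaline pH, had levels of 9.41, 8.83 and 9.15 in IMQ libraries, against 7.70, 7.59 and 8.18 in WT libraries, and rose by 1.30 ± 0.30 (SE; limma adjusted p = 0.00749). Kcnk13 (THIK-1), the background channel of microglia in the brain, had levels of 6.53, 6.62 and 7.23 in IMQ libraries, against 5.42, 4.93 and 5.90 in WT libraries. Kcnk13 rose by 1.37 ± 0.39 (SE; limma adjusted p = 0.0157), and its call ended without WT library 2 or IMQ library 3 (up to 0.0668). Kcnk15 (TASK-5), which gives no current on its own, had levels of 4.65, 5.41 and 4.95 in IMQ libraries, against 5.54, 6.95 and 7.44 in WT libraries, and fell by 1.64 ± 0.54 (SE; limma adjusted p = 0.0238).

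Among voltage-gated calcium channel genes, 3 rose and 4 fell, where 58.9% of all listed genes rose and 37.0% fell. Cacna1e, the pore of the R-type channel, had levels of 7.23, 7.83 and 8.08 in IMQ libraries, against 6.64, 4.39 and 3.75 in WT libraries, and rose by 2.78 ± 0.73 (SE; limma adjusted p = 0.012). Cacnb2, a cytoplasmic beta subunit that carries the pore to the membrane, had levels of 6.66, 6.67 and 6.65 in IMQ libraries, against 6.31, 5.50 and 4.93 in WT libraries. Cacnb2 rose by 1.08 ± 0.42 (SE; limma adjusted p = 0.0381), and lost its call without any 1 library other than WT library 1 (up to 0.0963).

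Genes of the gamma subunit family fell in 4 of 5 cases, where 37.0% of all listed genes fell. The split of the family was not tested. Cacng2, Cacng3 and Cacng8 encode proteins that serve mainly as partners of AMPA receptors. Cacng2 had levels of 8.94, 9.27 and 9.14 in IMQ libraries, against 10.38, 10.04 and 10.18 in WT libraries, and fell by 1.08 ± 0.24 (SE; limma adjusted p = 0.0066). Cacng3 had levels of 8.71, 8.97 and 8.93 in IMQ libraries, against 9.56, 9.92 and 10.20 in WT libraries. Cacng8 had levels of 3.57, 4.68 and 3.08 in IMQ libraries, against 5.32, 5.70 and 5.54 in WT libraries. IMQ lay wholly below WT for all 3 genes. Cacng3 fell by 1.02 ± 0.26 (SE; limma adjusted p = 0.0113) and Cacng8 by 1.75 ± 0.48 (SE; limma adjusted p = 0.0141), the Cacng8 call ending without IMQ library 3 (0.0552). Cacng6, the RefSeq neighbour of Cacng8, was higher, with 15, 9 and 10 reads in IMQ libraries against 0, 3 and 3 reads in WT libraries (limma adjusted p = 0.00768). The comparison rests on these few reads.

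Cacng1 encodes the gamma subunit of the skeletal muscle calcium channel and had no read in any IMQ library, against 5, 19 and 7 reads in WT libraries. It was at least 2.35-fold lower in IMQ against the floor of 3 reads per library (limma adjusted p = 0.00271). Of 20 skeletal muscle markers, 13 were listed and all 13 fell, where 37.0% of all listed genes fell. Their summed normalized count was 511 to 750 in IMQ libraries and 1173 to 6001 in WT libraries. Other channel genes best known from muscle went the other way. Chrna1, the alpha subunit of the muscle nicotinic receptor, had levels of 6.05, 5.48 and 4.84 in IMQ libraries, against 3.38, 3.07 and 4.43 in WT libraries, and rose by 1.83 ± 0.51 (SE; limma adjusted p = 0.0146), a call that ended without WT library 2 (0.0532). Clcn1, the chloride channel of skeletal muscle, rose by 1.19 ± 0.47 (SE; limma adjusted p = 0.0425), with a mean level of 6.52 ± 0.24 in IMQ libraries and 5.34 ± 0.83 in WT libraries (SD, n = 3 each), and lost its call without any 1 library other than WT library 1 (up to 0.126). The part of muscle RNA in these differences was not tested.

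Neuronal nicotinic receptor subunits differed in direction. Chrna4 had levels of 5.96, 5.02 and 6.52 in IMQ libraries, against 6.58, 7.69 and 8.35 in WT libraries, and fell by 1.71 ± 0.57 (SE; limma adjusted p = 0.025). Its usual partner Chrnb2 had levels of 11.38, 11.65 and 11.50 in IMQ libraries, against 11.33, 10.47 and 9.30 in WT libraries. The Chrnb2 difference of 1.14 ± 0.48 (SE) did not pass the threshold (limma adjusted p = 0.0501). The Chrna4 call ended without WT library 2 or 3 or IMQ library 1 or 2 (up to 0.0863), and the Chrnb2 difference was 1.63 without WT library 1 (limma adjusted p = 0.00402) and 0.61 without WT library 3 (0.0876).

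GABA-A receptor genes rose in 4 of 5 cases, where 58.9% of all listed genes rose. Gabrp, the pi subunit known from epithelia, had 31, 12 and 9 reads in IMQ libraries, against none in any WT library. With WT set to the floor of 3 reads per library it was at least 8.55-fold higher in IMQ (limma adjusted p = 0.000949). Gabra5, the alpha subunit of many extrasynaptic receptors, had levels of 8.94, 8.47 and 8.74 in IMQ libraries, against 8.08, 7.71 and 7.26 in WT libraries, and rose by 1.03 ± 0.31 (SE; limma adjusted p = 0.0187). Gabrb1, a beta subunit, had levels of 3.24, 4.24 and 3.41 in IMQ libraries, against 2.21, 0 and 2.19 in WT libraries. Gabrb1 rose by 2.16 ± 0.68 (SE; limma adjusted p = 0.0208) and the rho subunit Gabrr2 by 1.16 ± 0.44 (SE; limma adjusted p = 0.0364), while the rho subunit Gabrr3 fell by 1.95 ± 0.65 (SE; limma adjusted p = 0.0247). These calls other than that of Gabrp were each lost without at least 1 library, with a largest limma adjusted p of 0.0651 for Gabra5, 0.0666 for Gabrb1, 0.0985 for Gabrr2 and 0.0757 for Gabrr3. Without WT library 2 the Gabrb1 difference was 1.43 and still called (0.0475). The omitted libraries that ended a call were WT library 2 and IMQ libraries 1 and 3 for Gabra5, IMQ library 2 for Gabrb1, WT libraries 2 and 3 and IMQ libraries 1 and 3 for Gabrr2, and WT library 3 and IMQ libraries 2 and 3 for Gabrr3.

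Among TRP channels, Trpv4 and Trpc5 rose and Trpc7 fell. Trpv4, which opens to warmth and cell swelling, had levels of 7.99, 7.69 and 7.70 in IMQ libraries, against 5.71, 5.66 and 5.42 in WT libraries, and rose by 2.19 ± 0.30 (SE; limma adjusted p = 0.0011). Trpc5, linked to cold sensing in mouse, had levels of 5.35, 5.86 and 5.92 in IMQ libraries, against 5.16, 3.30 and 1.88 in WT libraries. Trpc5 rose by 2.26 ± 0.78 (SE; limma adjusted p = 0.0277), and lost its call without any 1 library other than WT library 1 (up to 0.078). Without WT library 3 the Trpc5 difference was 1.48. Trpc7, a channel opened by diacylglycerol, had 6, 4 and 2 reads in IMQ libraries, against 23, 23 and 29 reads in WT libraries, and fell by 1.97 ± 0.48 (SE; limma adjusted p = 0.00905). Of the heat and irritant sensors, neither Trpv1 nor Trpa1 was listed.

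Other sensor channels gave 1 gene each. Piezo1, the mechanically gated channel of many non-neuronal cells, had levels of 11.00, 10.83 and 10.82 in IMQ libraries, against 9.19, 9.40 and 9.47 in WT libraries, and rose by 1.53 ± 0.22 (SE; limma adjusted p = 0.00148). P2rx7, an ATP-gated channel of immune cells and satellite glia, had levels of 9.61, 10.06 and 10.01 in IMQ libraries, against 9.20, 7.80 and 6.12 in WT libraries. P2rx7 rose by 2.18 ± 0.70 (SE; limma adjusted p = 0.0222). Asic4, which forms no proton-gated channel alone, had levels of 5.39, 4.86 and 4.73 in IMQ libraries, against 6.42, 5.68 and 5.95 in WT libraries, and fell by 1.02 ± 0.38 (SE; limma adjusted p = 0.0337). Clic4, a soluble protein that can insert into membranes, had levels of 11.47, 11.49 and 11.59 in IMQ libraries, against 10.30, 9.25 and 7.71 in WT libraries, and rose by 2.43 ± 0.59 (SE; limma adjusted p = 0.00928). The P2rx7 call ended without WT library 2 (0.062) or IMQ library 1, 2 or 3 (0.0513, 0.0697 and 0.0613), and without WT library 3 its difference was 1.39. The Asic4 call ended without any 1 library other than IMQ library 1 (up to 0.116).

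Immune markers rose in the same libraries. Of 18 macrophage and monocyte markers, 17 were listed and all 17 rose. Their summed normalized count, to which Lyz2 gave the largest part, was 130164 to 160069 in IMQ libraries and 13754 to 16648 in WT libraries. Of 19 pan-neuronal markers, 3 were listed and all 3 fell (Nefm, Prph and Sncg), with a sum of 330181 to 340626 in IMQ libraries and 528511 to 1025110 in WT libraries, lowest in WT library 1. Their differences were -1.04, -1.09 and -1.46. Of the other marker lists, 7 of 11 neutrophil, 11 of 15 lymphocyte and 5 of 14 fibroblast and vessel markers rose, 1 lymphocyte marker fell, and 5 of 12 erythroid and 6 of 11 keratinocyte markers fell. Of all listed genes 58.9% rose and 37.0% fell. The part of these cells in the channel differences was not tested.

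WT library 1 lay closest to IMQ for many of the higher channel genes. It had the highest WT level for 19 of the 27 (70.4%), against 57.2% of all higher listed genes. The median difference of WT library 3 minus WT library 1 was -1.23 over the 27 channel genes and -0.62 over all higher listed genes. Set against single WT libraries, mean IMQ was higher by a median of 1.22 over WT library 1, 2.09 over WT library 2 and 1.92 over WT library 3. For all higher listed genes these medians were 1.46, 1.88 and 2.30. Against WT library 1 alone, 5 of the 27 (18.5%) differed by under 0.5, against 14.3% of all higher listed genes. The 5 were Scn3a, Kcnb2, Cacnb2, Chrnb2 and Clcn1. Among the 22 lower genes Grin2c and Kcns1 (9.09%) differed by under 0.5 from WT library 1, against 20.6% of all lower listed genes. The medians of the 22 were -1.20, -1.40 and -1.67 against WT libraries 1, 2 and 3. Those of all lower listed genes were -0.86, -1.45 and -1.90. The range over WT libraries exceeded the difference itself for 11 of the 27 higher and 4 of the 22 lower genes, against 32.3% and 30.2% of all higher and all lower listed genes.

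**Figure D3:**
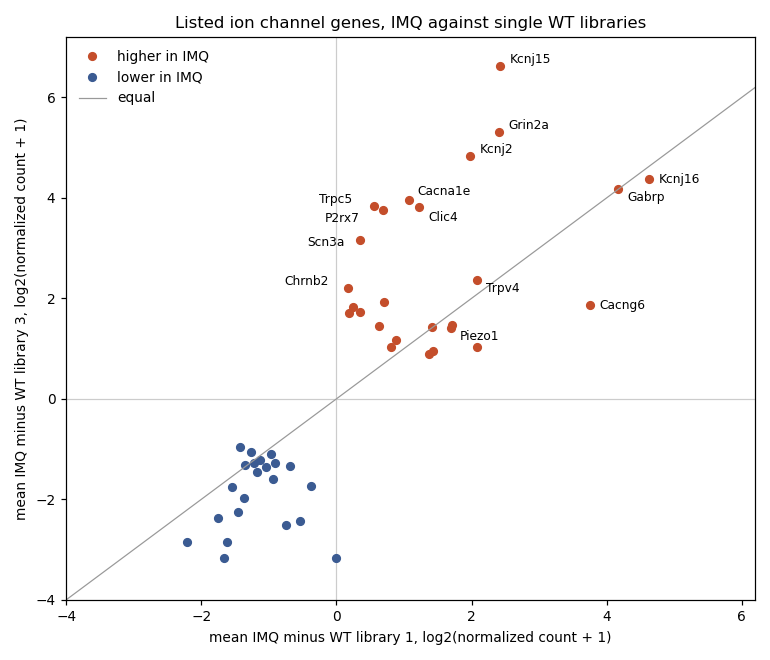
Mean IMQ minus WT library 1 (x axis) against mean IMQ minus WT library 3 (y axis) for listed ion channel genes, in log2(normalized count + 1), with a line where both are equal. Both axes share the IMQ mean. Scn3a, P2rx7, Trpc5 and Chrnb2 lie under 1 on the x axis and over 2 on the y axis, while Trpv4, Piezo1, Gabrp and Kcnj16 lie near the line.

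Calls that outlasted the omission of each single library were fewer. They were 11 of the 26 that rose, namely Kcnj16, Kcnj15, Kcnj2, Kcnk5, Cacna1e, Cacng6, Grin2a, Gabrp, Trpv4, Piezo1 and Clic4. They were 14 of the 22 that fell, namely Kcnip3, Kcnip4, Kcns3, Kcna10, Kcnh3, Kcnj4, Kcnj11, Kcnn1, Kcnn2, Cacng1, Cacng2, Cacng3, Grik1 and Trpc7, although Kcnh3 was below the filter in 1 of the 6 fits. The number of rising genes was 13 without WT library 2 and 13 without IMQ library 3, and 15 without IMQ library 1 or 2. It was 20 without WT library 3 and 27 without WT library 1. Among the remaining genes that changed, the Kcnk15 call ended without WT library 2 or 3 or IMQ library 1 or 3 (largest limma adjusted p 0.0767) and the Kcne2 call without WT library 2 or IMQ library 2 or 3 (0.0691). The Kcng4 call ended without WT library 2 or any 1 IMQ library (0.0801) and the Kcne5 call without any 1 IMQ library (0.0561). The direction was kept by every listed channel gene in each of these fits. The calls kept or lost were not counted over all listed genes, so these counts are not read as particular to channels.

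Lidocaine on top of imiquimod was followed by few listed changes of channel genes. Of the 5 listed, Kcnj16, Kcnk5, Kcnj13 and Cacng6 fell relative to IMQ and Trpc7 rose. By the same limma threshold 87.1% of all listed genes fell and 7.48% rose, so the 4 lower and 1 higher channel genes are not read as particular to channels. Lidocaine and IMQ libraries did not overlap for any of the 5, against 89.2% of listed genes that lay wholly below and 8.90% wholly above. With 2 lidocaine libraries the spread of that group rests on a single pair. The same IMQ libraries served both comparisons, so no relation between the comparisons is given.

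Kcnj16 had levels of 7.57 and 8.28 in lidocaine libraries, against 9.92, 8.73 and 9.52 in IMQ libraries. Kcnj16 fell by 1.47 ± 0.41 (SE; limma adjusted p = 0.0155), and both lidocaine libraries still lay above the WT levels of 4.67 to 5.01. Of the glial markers, 2 were listed and lower in lidocaine, with Gfap past the threshold (-1.27 ± 0.31, SE; limma adjusted p = 0.0113) and Glul not (-1.08; 0.0518). Their summed normalized count, mostly from Glul, was 21536 to 22640 in lidocaine libraries and 37113 to 61941 in IMQ libraries. By the limma threshold 87.1% of all listed genes fell, and the part of these markers in the Kcnj16 difference was not tested. Without lidocaine library 1 the Kcnj16 difference was -1.11 (limma adjusted p = 0.147), and without lidocaine library 2 it was -1.82 (0.0545).

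Kcnk5 had levels of 7.76 and 8.21 in lidocaine libraries, against 9.41, 8.83 and 9.15 in IMQ libraries. The lidocaine libraries lay near the WT levels of 7.59 to 8.18. Kcnk5 fell by 1.14 ± 0.27 (SE; limma adjusted p = 0.0102), and without lidocaine library 1 the difference was -0.92 (limma adjusted p = 0.0671). Kcnj13 encodes Kir7.1, a rectifier of transporting epithelia such as the choroid plexus. It was listed in this table alone, with levels of 5.15 and 6.28 in lidocaine libraries, against 6.82, 6.76 and 6.81 in IMQ libraries. Kcnj13 fell by 1.08 ± 0.39 (SE; limma adjusted p = 0.0342), although the 2 lidocaine libraries were further apart than the difference itself. Without lidocaine library 1 the difference was -0.51 (limma adjusted p = 0.122), without lidocaine library 2 it was -1.65, and the call also ended without any 1 IMQ library (0.0748, 0.0602 and 0.0884).

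Cacng6 had no read in either lidocaine library, against 15, 9 and 10 reads in IMQ libraries and 0, 3 and 3 reads in WT libraries. Against a floor of 3 reads per library it was at least 3.67-fold lower in lidocaine than in IMQ (limma adjusted p = 0.00266), and its call held with any 1 library left out. Trpc7 had 13 and 17 reads in lidocaine libraries, against 6, 4 and 2 reads in IMQ libraries and 23, 23 and 29 reads in WT libraries. On the log2 scale its levels were 4.09 and 4.32 in lidocaine libraries, against 3.04, 2.45 and 1.65 in IMQ libraries and 4.14, 4.17 and 4.75 in WT libraries. Trpc7 rose by 1.82 ± 0.51 (SE; limma adjusted p = 0.0162), and the difference was 1.46 without IMQ library 3 (0.0528), 1.94 without lidocaine library 1 (0.0733) and 1.71 without lidocaine library 2 (0.0808).

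**Figure D4:**
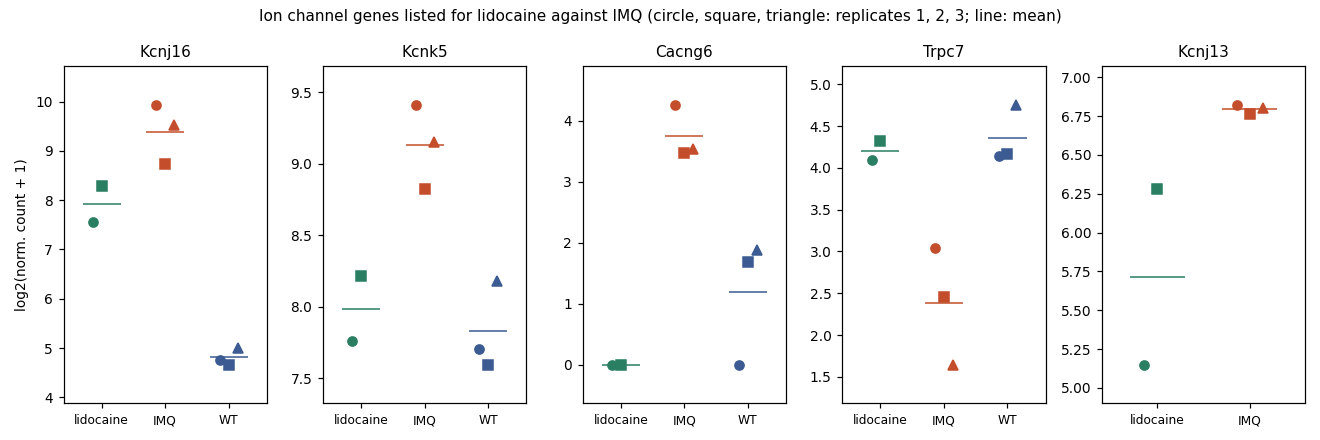
Level per library of the 5 ion channel genes listed for lidocaine against IMQ, in log2(normalized count + 1), with lidocaine left, then IMQ and WT. Circles, squares and triangles are replicates 1, 2 and 3, lines are group means, and each panel has its own axis that does not start at 0. Kcnj16 in lidocaine lies between IMQ and WT, Kcnk5 and Trpc7 lie near WT, and Cacng6 is at 0. Kcnj13 has no WT values because it was not listed for IMQ against WT. No return to WT is read, since both listings used the same IMQ libraries.

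Set against WT as a description only, mean lidocaine minus mean WT was 3.11 for Kcnj16, 0.16 for Kcnk5, -1.19 for Cacng6 and -0.15 for Trpc7. These genes were listed in both tables for differences from the same IMQ libraries. The place of lidocaine relative to WT depends on that selection, so no return to WT is read from it. Macrophage markers were lower as well, with 10 of 18 listed and all 10 falling. Their summed normalized count, to which Lyz2 gave the largest part, was 46072 to 53357 in lidocaine libraries and 113450 to 142898 in IMQ libraries. All 6 listed neutrophil, 13 lymphocyte and 6 erythroid markers fell too, as did 1 muscle marker, while the 1 listed fibroblast and vessel marker was higher by 1.01 and not past the threshold. No pan-neuronal or keratinocyte marker was listed. By the limma threshold 87.1% of all listed genes fell, so these marker counts are not read as particular to these cells. The part of these cells in the 5 differences was not tested.

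Channel genes whose symbols the rule does not cover were listed less often than not, 19 of 64 for IMQ against WT. Of these 19, 14 rose and 4 fell, while Aqp4, an aquaporin of glia, missed the threshold (1.64 ± 0.69, SE; limma adjusted p = 0.0505). Over all listed genes, 58.9% rose and 37.0% fell. Scnn1b, a subunit of the epithelial sodium channel, rose by 2.35 ± 0.41 (SE; limma adjusted p = 0.00284), and Itpr2, an intracellular calcium release channel, rose by 2.79 ± 0.59 (SE; limma adjusted p = 0.00586). Tmem63a, a mechanically gated channel, rose by 1.18 ± 0.24, and the release channel Itpr3 by 1.01 ± 0.24 (SE). The mitochondrial porin Vdac3 fell by 1.02 ± 0.28, the aquaporin Aqp3 by 1.78 ± 0.53 and the potassium channel of the endoplasmic reticulum Tmem38a by 1.08 ± 0.32 (SE). For lidocaine against IMQ, 3 of the 64 were listed and all 3 fell, where 87.1% of all listed genes fell. They were Scnn1b, lower by 1.59, the connexin gene Gjb6 by 1.40 and Tmc8 by 1.18.

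Proteins that attach to channels or to the sodium pump gave 8 listed genes of 44. Against 58.9% of all listed genes that rose and 37.0% that fell, 4 of these 8 rose and 4 fell. Stac2, an adaptor of L-type calcium channels, had the largest difference and rose by 4.55 ± 0.34 (SE; limma adjusted p = 0.000117), with a mean level of 8.84 ± 0.32 in IMQ libraries and 4.29 ± 0.29 in WT libraries (SD, n = 3 each). Atp1b2, a beta subunit of the sodium pump, rose by 1.37 ± 0.22, Tmem100, which binds TRPA1 and TRPV1 in mouse sensory neurons, by 1.51 ± 0.28, and the pump regulator Fxyd5 by 1.56 ± 0.37 (SE). Fxyd2, another pump regulator, fell by 2.05 ± 0.35, and Fgf12 and Fgf11, which bind sodium channels from inside the cell, fell by 1.19 ± 0.22 and 1.22 ± 0.33 (SE). Stac3, the muscle member of the Stac family, fell by 2.37 ± 0.63 (SE), beside the fall of the muscle markers. None of the 44 was listed for lidocaine against IMQ.

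By RefSeq, 7 of the 50 channel genes overlap another named protein-coding gene, namely Chrna4, Clcn1, Kcnh3, Kcnj13, Kcnk15, Piezo1 and Trpc5. Counting annotated genes of any type, 31 of the 50 overlap another gene, with Kcnj16, Kcnk5 and Trpc7 among them. No source used here gives the strand setting of the counting, and reads of these genes and of their overlap partners cannot be told apart. For Kcnj13 the partner is Gigyf2, for Piezo1 it is Ctu2 and for Clcn1 it is Fam131b.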

How the data were processed

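RNA was sequenced from dorsal root ganglia of 8 samples. bcl2fastq, DESeq2 and STAR 2.5.3a are named, without roles, in the submitters' processing notes. The build, the annotation, the counting tool and the strandedness are not given in the sources used. The authors deposited 2 tables of selected genes on a log2 scale, log2(normalized count + 1). This unit was read from the values, since 100% of the values checked were whole multiples of 1 read per library (tolerance 0.02 reads). By these steps, relative depth was 0.789 to 0.873 in lidocaine, 0.808 to 0.912 in IMQ and 1.09 to 1.34 in WT libraries. Total depth was not taken from the listed genes, and floors of 3 reads cover counting error only.

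Each comparison was fitted in its own table with limma 3.58.1 (R 4.3.3), with a mean-variance trend, pseudocount 1 and a filter at a mean normalized count of 1. Differences on this scale understate changes of low genes. Adjusted p-values (Benjamini-Hochberg over the table, threshold 0.05) do not account for the authors' selection of listed genes. The script was tested on simulated data. Genes without a symbol stayed in the fit (21 and 10 genes). No 2 libraries were counted as 1.

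The channel genes and the marker, target and modulator lists were chosen with earlier results of these data known. Listed channel genes are named by class, target list, size and adjusted p, which covers all of them. Of the lists outside the symbol rule, the 4 smallest adjusted p-values per direction are named. Some genes that these rules name are counted but not reported here. Other genes were chosen after their values were seen. The 50 symbols were matched to RefSeq (build GRCr8), which gave promoters for 37. Other RefSeq coordinates, in RefSeq's own build, served for overlaps, neighbours and the check of whether a promoter window lies inside its gene span. That check takes both sets of coordinates to be in the same build.

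Tried in turn were no filter, a mean of at least 50, a pseudocount of 0.1 or 10, an adjusted p under 0.01, the replicate number as a block, limma-voom on recovered reads, limma without trend, genes with a symbol only, and each library left out.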

Additional observations from a re-analysis of the deposited data

How the results depend on the processing

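No listed channel gene changed direction under any of the alternatives. For IMQ against WT, 26 channel genes rose and 22 fell. Requiring a mean normalized count of at least 50 left 17 and 14, since fewer genes were tested, and an adjusted p under 0.01 gave 10 and 12. Leaving out 1 library gave 13 to 27 that rose and 15 to 21 that fell. For lidocaine against IMQ, 1 rose and 4 fell. The rising gene, Trpc7, was not counted at a mean of at least 50 (0 rose), at an adjusted p under 0.01 (0 rose, 1 fell) or with the replicate number as a block (0 rose, 3 fell), and leaving out 1 library gave 0 to 1 that rose and 1 to 3 that fell. Where 1 lidocaine library remained, it was assumed to vary like the IMQ group.

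With a pseudocount of 10 and with limma-voom on recovered reads Chrnb2 passed and Grin2c did not, and with a pseudocount of 0.1 Gabrb1 and Grin2c did not. No filter, limma without a trend and genes with a symbol only changed no call. Differences of genes with few reads depended on the pseudocount, as for Gabrb1 (3.36 at 0.1 and 0.82 at 10) and Trpc7 (-1.03 at 10 for IMQ against WT).

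The labels give groups the same replicate numbers. Deviations of same-numbered libraries from their group means correlated at -0.159, -0.058 and -0.118 for IMQ with WT, and at 0.016 and 0.044 for lidocaine with IMQ. Deviations of 2 or 3 libraries from their own mean are tied to each other, so these values cannot tell whether the numbers pair the samples. With the number as a block, 24 channel genes rose and 20 fell for IMQ against WT, and 0 rose and 3 fell for lidocaine against IMQ. Low counts limit Cacng6, Cacng1, Trpc7, Kcnh3, Grin2c, Gabrp and Gabrr3, and 3 against 3 or 2 against 3 libraries limit every spread given.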
